A study of Mus musculus with 6 samples.

Results

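The 176 solute carrier genes of the KPC table were compared between cells with a knockdown of Brca2 and their controls. They are all rows whose gene symbol begins with Slc followed by a number, out of 10616 genes, and the symbol alone chose them. KPC cells are a cultured mouse pancreatic ductal adenocarcinoma line. One set of 3 libraries came from cells with a lentiviral pLKO.1 short hairpin RNA against Brca2 (shBrca2) and the other set of 3 from cells with a non-targeting hairpin in the same vector (shControl). Both sets went through infection and puromycin selection, grew in culture in the same medium, and were sorted for live cells before capture of poly(A) RNA and 3′ end sequencing. How many hairpins or clones stand behind each group is not given in the sources used here. A legend of the study counts mice as replicates while describing cultured cells, and the labels do not say whether libraries are separate cultures, so p-values measure the spread between these libraries, which may be technical.

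Solute carriers are membrane proteins that move sugars, amino acids, ions, metals, vitamins and nucleotides across the plasma membrane and the membranes of organelles, driven by gradients rather than by hydrolysis of ATP. The family number in the symbol follows sequence similarity and usually the substrate: Slc2 carries hexoses, Slc1, Slc3, Slc7 and Slc38 carry amino acids or are subunits of such carriers, Slc25 lies in the inner mitochondrial membrane, Slc30 moves zinc out of the cytosol and Slc39 moves zinc into it. Pancreatic cancer cells are known for high glucose uptake, lactate export and a demand for amino acids. The symbol rule also took in 5 genes that are no carriers, among them the scaffold genes Slc9a3r1 and Slc9a3r2.

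The libraries held from 1519340 to 2452467 counts, of which the solute carriers took 1.27% to 1.30% in shBrca2 and 1.23% to 1.28% in shControl. Brca2 itself had 10, 11 and 14 raw counts in shBrca2 and 33, 52 and 33 in shControl (log2 fold change -1.61, DESeq2 likelihood ratio test, adjusted p = 0.029). ShControl replicate 3 stood apart on the first principal component of the whole table (0.74, against -0.43 to 0.26 for the other 5). All 8 ductal markers examined were in the table, at a summed 16783 to 17612 normalized counts in shBrca2 and 17674 to 18845 in shControl, with Krt7 and Sox9 called higher in shBrca2 (log2 fold changes of 1.21 and 1.2) and Epcam at 9.09 or less in every library. The part of these marker levels in the results on carriers was not tested, and in bulk samples fewer cells of a type and less RNA per cell cannot be told apart. Of 13 fibroblast, immune and endothelial markers looked for, only Col1a2 and Cd68 were in the table, with at most 22.2 and 20.4 normalized counts in any library.

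Of the 176 genes, 6 were called different and 2 of them rose in shBrca2, Slc26a2 and Slc30a5, while 4 fell, Slc4a11, Slc16a3, Slc9a5 and Slc2a6. They carry sulfate, zinc, ions and protons, lactate, and hexoses. Calls required a p under 0.1 after Benjamini-Hochberg adjustment over all genes tested, a log2 fold change beyond 0.5 in either direction, and a mean normalized count over the 6 libraries (base mean) above 5. An adjusted p was given for 169 of the 176 and 7 were too low in count, so the 6 calls are 3.55% of the members tested, beside 1.27% of all genes tested. The 2 higher calls are 1.18% of the members, beside 0.77% of all genes, and the 4 lower calls 2.37%, beside 0.5%. The groups did not overlap in 26 members that were higher in every shBrca2 library (15.4%, beside 10.2% of all genes) and in 24 that were lower (14.2%, beside 10.4%). An unadjusted p under 0.05 was found for 27 members, or 16%, beside 8.66% of all genes. The median log2 fold change of the members was 0.03, with 93 above 0 and 76 below, against a median of -0.001 over all genes tested. Summed over the 176 genes, the shBrca2 libraries held 26355 to 26728 normalized counts and the shControl libraries 25663 to 26077, without overlap. The group means differed by less than those of Slc25a3, Slc25a4 and Slc25a5 alone (26571 against 25841 for all members, 6795 against 5461 for these 3), and as a share of raw counts the groups overlapped, since shBrca2 replicate 2 (1.27%) lay below shControl replicate 3 (1.28%). Several calls were lost when 1 library was left out, and such fits have less power. Over these 6 fits the log2 fold change ranged from -1.04 to -0.86 for Slc16a3 and from 0.71 to 0.98 for Slc26a2. It ranged from -1.24 to -0.86 for Slc9a5, from -1.86 to -1.39 for Slc2a6 and from 0.68 to 0.95 for Slc30a5. What a single library contributes to a lost call was not tested. Only Slc4a11 and Slc16a3 were called without shBrca2 replicate 1, and the same 2 without shBrca2 replicate 3. Without shControl replicate 2 the calls were Slc4a11, Slc30a5 and Slc16a10, and without shControl replicate 3, the library that stood apart, they were Slc4a11, Slc16a3 and Slc26a2.

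**Figure D1:**
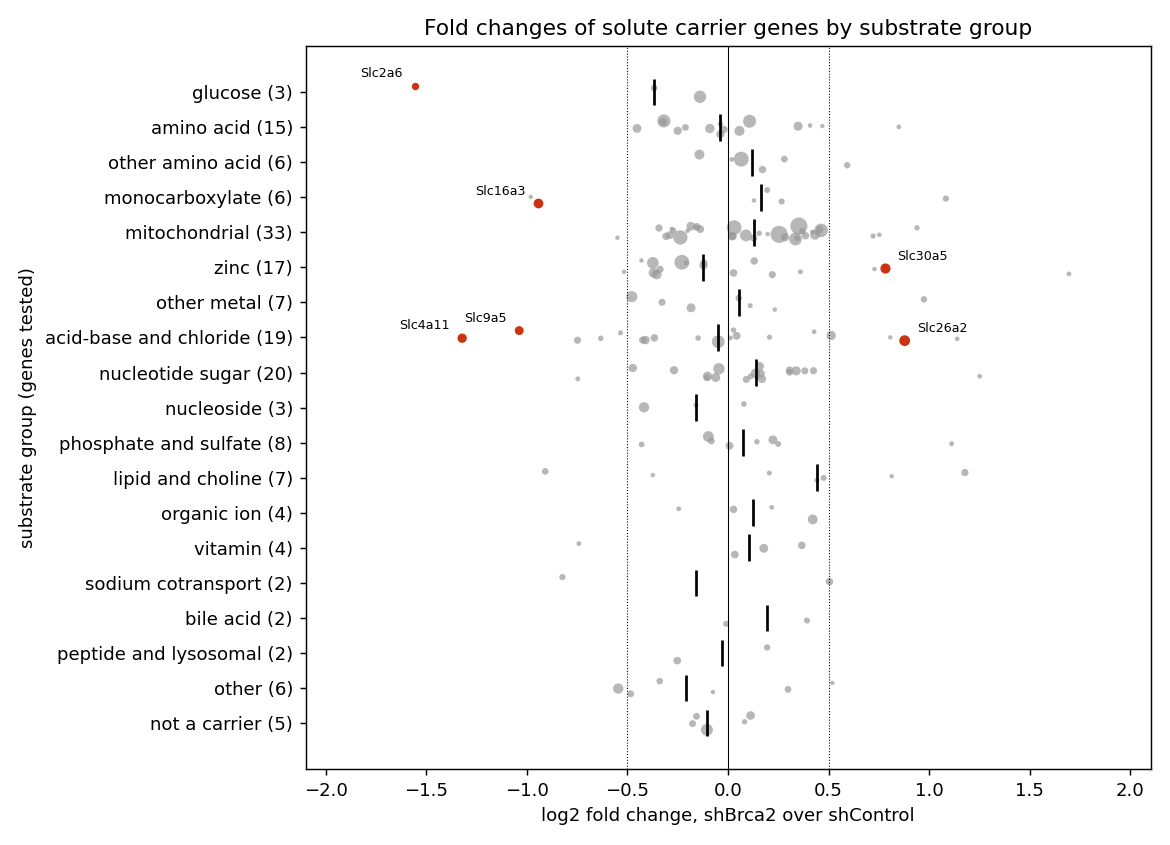
Log2 fold change of shBrca2 over shControl (x axis) for the 169 tested solute carrier genes by substrate group (y axis, number tested in brackets). Each point is a gene, larger with a higher base mean, red where called, the black bar is the group's median, and the dotted lines stand at -0.5 and 0.5. The 6 called genes lie in 4 groups, and the group medians of the amino acid (-0.04), mitochondrial (0.13) and zinc (-0.12) carriers lie near 0.

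The promoter sequences of 4 genes are shown as examples for the results that follow: Slc30a5 (called higher), Slc2a6 (called lower), and Slc25a4 and Slc25a5, which both read higher in every shBrca2 library. Their stretches directly before the gene could be read free of another gene. Stretches of other named genes, the called Slc9a5 among them, could be read as well and are not shown. Each sequence shown is the stretch directly before the gene's outermost RefSeq start, from the 250 bases before an annotated start. It is read 5′ to 3′ on the gene's strand (RefSeq, GRCm38.p6, the build called mm10 in the submitters' processing notes). Capitals mark matches on either strand to the metal response element TGCNCNC, the amino acid response core TGATGNAA or the hypoxia response core ACGTG. The stretch of Slc30a5 lies on the minus strand at chr13:100833481-100833677, that of Slc2a6 on the minus strand at chr2:27028001-27028248, that of Slc25a4 on the minus strand at chr8:46211063-46211312 and that of Slc25a5 on the plus strand at chrX:36795347-36795596.
Slc30a5: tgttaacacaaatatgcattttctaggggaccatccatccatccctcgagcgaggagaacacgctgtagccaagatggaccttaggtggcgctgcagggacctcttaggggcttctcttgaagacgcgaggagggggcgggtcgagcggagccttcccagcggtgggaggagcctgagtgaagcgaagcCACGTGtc
Slc2a6: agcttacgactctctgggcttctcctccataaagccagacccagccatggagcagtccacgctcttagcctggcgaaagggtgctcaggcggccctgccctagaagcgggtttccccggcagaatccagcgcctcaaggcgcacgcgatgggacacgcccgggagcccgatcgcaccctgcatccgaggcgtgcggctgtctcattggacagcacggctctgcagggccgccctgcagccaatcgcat
Slc25a4: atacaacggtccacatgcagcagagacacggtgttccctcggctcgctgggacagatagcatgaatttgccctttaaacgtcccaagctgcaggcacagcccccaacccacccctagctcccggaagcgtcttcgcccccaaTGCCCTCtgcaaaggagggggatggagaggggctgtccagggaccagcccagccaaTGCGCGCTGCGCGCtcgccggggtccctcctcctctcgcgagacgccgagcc
Slc25a5: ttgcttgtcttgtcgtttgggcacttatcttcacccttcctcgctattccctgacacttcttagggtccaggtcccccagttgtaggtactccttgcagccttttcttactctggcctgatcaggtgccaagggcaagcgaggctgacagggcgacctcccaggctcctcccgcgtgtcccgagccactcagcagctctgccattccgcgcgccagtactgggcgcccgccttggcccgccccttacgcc

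In the stretch of Slc30a5 the capitals spell a palindrome that holds the hypoxia response core once on each strand, and its full window held 1 metal response match in bases not shown, which lie within the gene's span. Slc25a4 held 3 metal response matches, of which the last 2 are adjacent, and Slc2a6 and Slc25a5 held no match to any of the 3 motifs. A window was found for 131 of the 176 genes. The metal response letters lay in 57.3% of these genes and in 47.2% of the 27025 RefSeq genes with a window. The hypoxia core, chosen after the called genes were seen, lay in 25.2% and 18.5%, and the amino acid response core in 2.29% and 3.91%. The RefSeq set also holds genes absent from the count table, so these shares compare unlike sets of genes. These matches are a description of letters, and binding was not measured.

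The called gene with the smallest p was Slc4a11, which moves protons or hydroxide ions in an ion-exchanger family otherwise known for bicarbonate. Its normalized counts were 44.9, 34 and 48.7 in shBrca2 and 86.9, 108 and 124 in shControl. Every shBrca2 library lay well below every shControl library. It fell from 106 ± 18.4 to 42.6 ± 7.63 (SD, n = 3), and its log2 fold change was -1.32 ± 0.28 (SE, DESeq2 adjusted p = 0.001). It ranked 25 by p among all genes. Slc4a11 (chromosome 2, 130684107 to 130697519) was the 1 member called in all 6 fits that each left out a library, and its log2 fold change there ranged from -1.45 to -1.18.

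Slc16a3 encodes MCT4, the monocarboxylate carrier through which glycolytic cells release lactate. It had 62.7, 64.3 and 67.9 normalized counts in shBrca2 and 108, 138 and 129 in shControl. The shBrca2 libraries were close to each other, and the groups did not overlap. The log2 fold change was -0.94 ± 0.24 (SE), with a mean of 64.9 ± 2.67 against 125 ± 15.4 (SD, n = 3, DESeq2 adjusted p = 0.0159). The call was lost only without shControl replicate 2, where the adjusted p was 0.248. Slc16a3 (chromosome 11, 120948484 to 120959000) overlaps Csnk1d in RefSeq, and since the sources do not say whether counting used strand, its count is uncertain. The other 5 monocarboxylate family members were not called. Among them Slc16a10, a uniporter of aromatic amino acids, had 49, 47.3 and 55.7 normalized counts in shBrca2 and 15.2, 35.2 and 20.8 in shControl (log2 fold change 1.08 ± 0.38 SE, DESeq2 adjusted p = 0.191). Without shControl replicate 2 this became 1.5 with an adjusted p of 0.0999, which passed the threshold.

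Slc9a5 encodes the sodium/proton exchanger NHE5, best known from brain. Its normalized counts were 38.1, 48.2 and 29.6 in shBrca2 and 74.8, 78.8 and 84.0 in shControl, with no overlap. It fell by 1.04 ± 0.30 (SE) on the log2 scale, from 79.2 ± 4.65 to 38.6 ± 9.32 (SD, n = 3, DESeq2 adjusted p = 0.0511). The call held only without shBrca2 replicate 2. The adjusted p was 0.187 without shBrca2 replicate 1, 0.489 without shBrca2 replicate 3, and 0.102, 0.327 and 0.232 without shControl replicates 1, 2 and 3. Slc9a5 (chromosome 8, 105348156 to 105369881) overlaps Plekhg4 in RefSeq, which makes its count uncertain.

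Slc26a2, the sulfate carrier that supplies sulfation of proteoglycans, was the called gene with the highest count. Its normalized counts were 230, 175 and 192 in shBrca2 and 120, 82.2 and 123 in shControl, so that every shBrca2 library was higher. It rose from 108 ± 22.7 to 199 ± 28.3 (SD, n = 3), and its log2 fold change was 0.88 ± 0.23 (SE, DESeq2 adjusted p = 0.017). It lost the call without shBrca2 replicate 1 (adjusted p = 0.221), without shBrca2 replicate 3 (0.155) and without shControl replicate 2 (0.327). Slc26a2 (chromosome 18, 61196854 to 61211596) overlaps the predicted gene Gm52353, so its count is uncertain.

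Slc4a11, Slc9a5 and Slc26a2 belong to the ion exchange and chloride families (Slc4, Slc8, Slc9, Slc12, Slc24 and Slc26), which held 3 of the 6 calls among 19 members (15.8%, beside 1.27% of all genes), 1 higher and 2 lower, at a median log2 fold change of -0.05. Of the uncalled members, Slc9a8, the sodium/proton exchanger of the Golgi, had 54.5, 41.6 and 40.9 normalized counts in shBrca2 and 62.6, 90.6 and 74.2 in shControl (log2 fold change -0.75, DESeq2 adjusted p = 0.322). The log2 fold change of Slc12a9 was -0.63 ± 0.47 (SE), with shBrca2 libraries at 13.1 to 23.6 and shControl libraries at 14.1 to 36.1, so the groups overlapped. The chloride cotransporter gene Slc12a2 (named after its values were seen) had the highest base mean of these families, 626, and its log2 fold change was -0.05 ± 0.19 (SE). Of the 19 members, 9 had a log2 fold change above 0 and 10 below. Slc12a7, also named after its values were seen, went up by 0.51 ± 0.21 (SE) on the log2 scale with overlapping groups (DESeq2 adjusted p = 0.389).

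**Figure D2:**
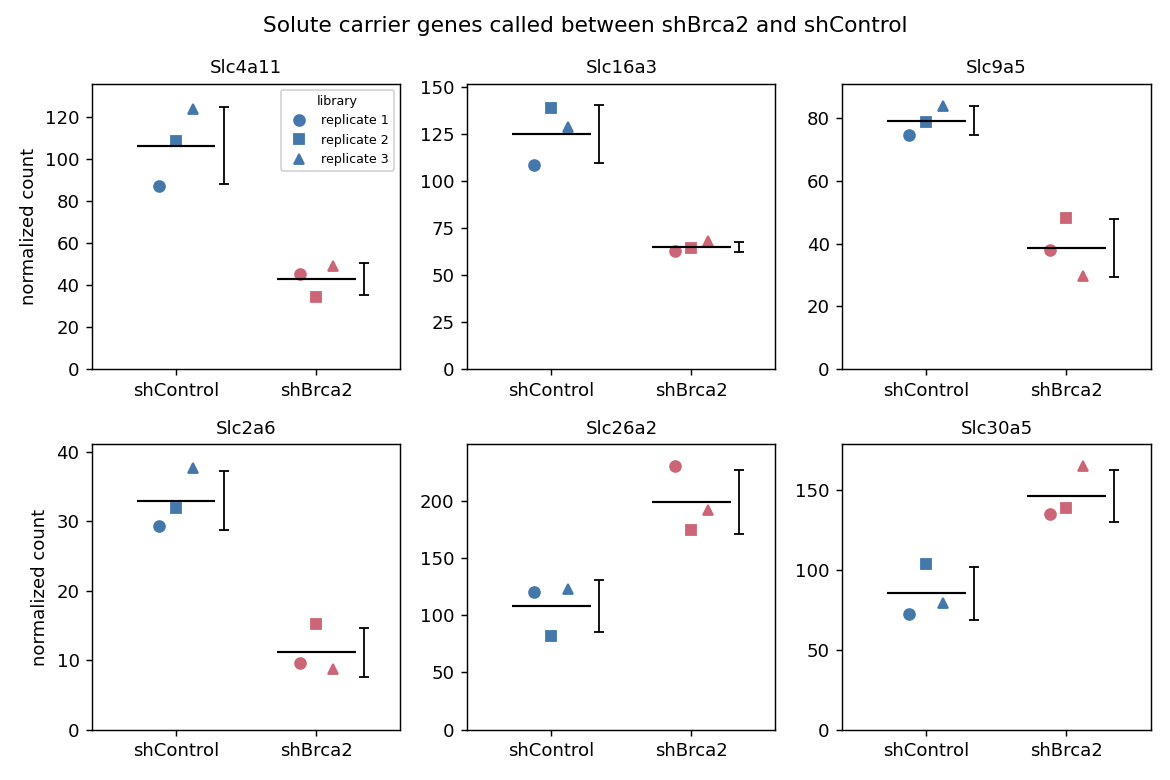
Normalized count (y axis, from 0) of the 6 called solute carrier genes in each library. Points are libraries, shaped by replicate, horizontal bars are group means and the bars at the right of each group are ± 1 SD. In all 6 genes the 3 shBrca2 libraries lie on 1 side of the 3 shControl libraries, for example 34 to 48.7 against 86.9 to 124 in Slc4a11.

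Among the hexose carriers of the Slc2 family, 3 were in the table and 1 was called. That is 33.3% of only 3 genes, beside 1.27% of all genes tested. Slc2a6 encodes GLUT6, a hexose carrier found mainly on internal membranes. It had 9.53, 15.1 and 8.70 normalized counts in shBrca2 and 29.3, 31.9 and 37.6 in shControl, without overlap but at the lowest counts of the 6 called genes (7, 16 and 10 raw counts in shBrca2). It fell by 1.56 ± 0.46 (SE) on the log2 scale (DESeq2 adjusted p = 0.0678). The call held only without shBrca2 replicate 2. The adjusted p rose to 0.247 without shBrca2 replicate 1, 0.511 without shBrca2 replicate 3, and 0.117, 0.34 and 0.310 without shControl replicates 1, 2 and 3. Slc2a6 lies on chromosome 2, 27021363 to 27028000.

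Slc2a1, which encodes the main glucose importer GLUT1, was not called. It had 504, 475 and 615 normalized counts in shBrca2 and 648, 543 and 567 in shControl. The groups overlapped, and the log2 fold change was -0.14 with a 95% interval of -0.46 to 0.18. Slc2a8, an intracellular hexose carrier, had 47.7, 36.9 and 32.2 in shBrca2 against 54.6, 47 and 47.5 in shControl, a log2 fold change of -0.37 with an interval of -1.0 to 0.27. All 3 Slc2 genes had a negative log2 fold change, as did 5016 of the 9997 genes tested, and only Slc2a6 passed the test.

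Of the 16 amino acid carriers and subunits, 0 were called by DESeq2 and 0 by the edgeR quasi-likelihood test. Of these carriers 1 had an unadjusted p under 0.05 (8.66% of all genes did). Their median log2 fold change was -0.04, with 6 above 0 and 9 below among the 15 tested. The gene with the unadjusted p under 0.05 was Slc38a10, at 104, 151 and 108 normalized counts in shBrca2 and 148, 183 and 167 in shControl. Its log2 fold change was -0.45 ± 0.22 (SE), the groups overlapped, and the adjusted p was 0.555 by DESeq2. Slc3a2, the CD98 heavy chain that brings several Slc7 carriers to the cell surface, had 691, 711 and 479 in shBrca2 and 890, 717 and 737 in shControl. Each shBrca2 library was lower, shBrca2 replicate 2 only narrowly, and the log2 fold change of -0.32 had an interval of -0.67 to 0.03 (DESeq2 adjusted p = 0.658).

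Among further amino acid carriers none was called, and those named next, Slc38a2 apart, were chosen after their values were seen. Slc7a5, the LAT1 carrier of leucine and other large amino acids, had a log2 fold change of -0.21 ± 0.35 (SE). Slc7a11, the cystine/glutamate exchanger that feeds glutathione synthesis, had 101, 56.7 and 70.5 normalized counts in shBrca2 and 106, 66.2 and 57.3 in shControl, a log2 fold change of -0.02 ± 0.31 (SE). The groups overlapped over nearly their whole ranges. Slc1a5, a glutamine carrier, stood at -0.25 ± 0.23 (SE) on the log2 scale, and for its relative Slc1a4, a carrier of alanine and serine, the value was 0.35 ± 0.21 (SE), neither of them called. Slc38a2, the sodium-coupled neutral amino acid carrier SNAT2, had 791, 661 and 666 in shBrca2 and 639, 708 and 616 in shControl, a log2 fold change of 0.11 with an interval of -0.19 to 0.41.

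The 33 mitochondrial carriers of the Slc25 family made up the largest group. By DESeq2 0 were called and by edgeR 0, 4 had an unadjusted p under 0.05 (8.66% of all genes did), and 21 had a log2 fold change above 0 and 12 below, with a median of 0.13. In 6 of the 33 the groups did not overlap with shBrca2 higher and in 1 with shBrca2 lower, beside 10.2% and 10.4% of all genes. The smallest p belonged to Slc25a5, which encodes the ADP/ATP exchanger ANT2. It had 966, 931 and 905 normalized counts in shBrca2 and 737, 669 and 627 in shControl, all 3 shBrca2 libraries above all 3 shControl libraries. Its adjusted p of 0.0931 by DESeq2 passed the threshold, while its log2 fold change of 0.46 ± 0.14 (SE) was under the minimum of 0.5, so it was not called. Without shControl replicate 1 it was called (log2 fold change 0.52, DESeq2 adjusted p = 0.0614).

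Slc25a4, the related exchanger ANT1, had 2407, 2346 and 2430 normalized counts in shBrca2 and 1826, 1832 and 1970 in shControl. The groups did not overlap, and the log2 fold change was 0.35 ± 0.13 (SE, DESeq2 adjusted p = 0.232). Slc25a3, which brings phosphate into the matrix for ATP synthesis, had 3089, 3275 and 4034 in shBrca2 and 3307, 2658 and 2759 in shControl. ShControl replicate 1 lay above 2 shBrca2 libraries there, and the log2 fold change was 0.25 with an interval of -0.05 to 0.56. Summed over these 3 genes (a sum chosen after their values were seen), shBrca2 libraries held 6462, 6553 and 7369 normalized counts and shControl libraries 5869, 5159 and 5355. The other 30 mitochondrial carriers summed to 5044, 4796 and 4543 in shBrca2 and 4530, 4736 and 4741 in shControl, which overlapped, and their median log2 fold change was 0.06. The peroxisomal member Slc25a17 (log2 fold change 0.43) and the calcium-regulated ATP-Mg/phosphate carrier Slc25a24 (0.34), named after their values were seen, were also higher in every shBrca2 library, though neither was called (DESeq2 adjusted p = 0.403 and 0.443). The citrate carrier Slc25a1, likewise, had a log2 fold change of -0.24 ± 0.19 (SE), with 621 normalized counts in shBrca2 replicate 3 and 1001 to 1136 in the other 5 libraries.

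Among the 17 zinc carriers 1 was called (5.88%, beside 1.27% of all genes tested). The called gene was Slc30a5, which encodes ZnT5 and moves zinc into the early secretory pathway. Its normalized counts were 135, 139 and 165 in shBrca2 and 72.7, 104 and 79.1 in shControl. Every shBrca2 library was higher, and the mean rose from 85.3 ± 16.5 to 146 ± 16.5 (SD, n = 3), and its log2 fold change was 0.78 ± 0.23 (SE, DESeq2 adjusted p = 0.0798). The call held only without shControl replicate 2. The adjusted p was 0.162, 0.152 and 0.585 without shBrca2 replicates 1, 2 and 3, 0.270 without shControl replicate 1 and 0.316 without shControl replicate 3. Slc30a5 lies on chromosome 13, 100802645 to 100833480. Slc30a6 (named after its values were seen), whose product pairs with ZnT5, had a log2 fold change of -0.12 ± 0.23 (SE).

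Slc30a4, a zinc carrier of secretory and endosomal vesicles, had 23.2, 14.2 and 20 normalized counts in shBrca2 and 4.04, 8.39 and 4.94 in shControl. Although the groups did not overlap and the log2 fold change was 1.69 ± 0.61 (SE), the counts were low and the adjusted p was 0.226 by DESeq2. It also overlaps 4930417H01Rik in RefSeq. The other 4 Slc30 genes had log2 fold changes from -0.43 to -0.12.

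The Slc39 importers had 0 calls among 11 genes by DESeq2 and 0 by edgeR. Of these importers 2 had an unadjusted p under 0.05 (8.66% of all genes did). Slc39a4, the ZIP4 importer known for zinc uptake in the gut, had 936, 1002 and 1209 normalized counts in shBrca2 and 1270, 1133 and 1290 in shControl, and shBrca2 replicate 3 lay within the shControl range. Its log2 fold change was -0.23 with an interval of -0.53 to 0.07. Slc39a7, the ZIP7 carrier that releases zinc from the endoplasmic reticulum, had 388, 410 and 349 against 466, 488 and 532, a log2 fold change of -0.37 ± 0.16 (SE) with no overlap (DESeq2 adjusted p = 0.405). Slc39a13 (named after its values were seen) also had no overlap, at a log2 fold change of -0.37 (DESeq2 adjusted p = 0.573). Summed over the 11 genes, shBrca2 libraries held 1873, 1978 and 2084 normalized counts and shControl libraries 2296, 2212 and 2464, and most of this sum came from Slc39a4 and Slc39a7.

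**Figure D3:**
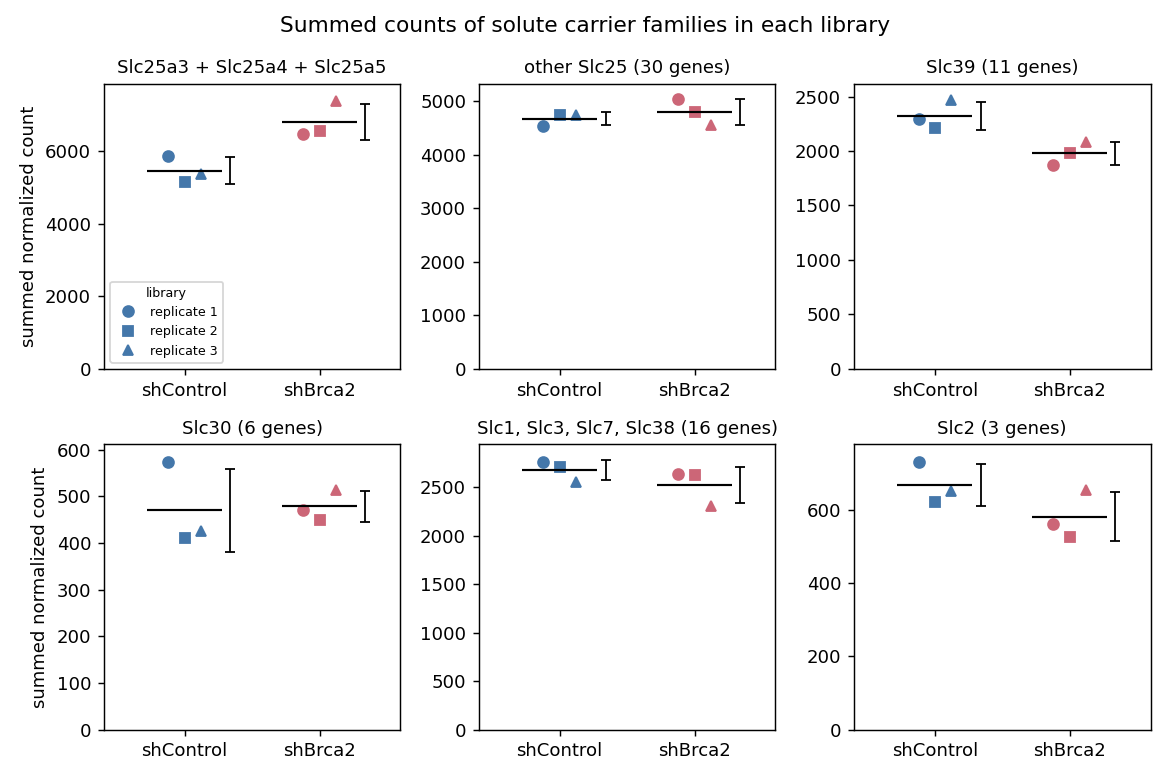
Summed normalized count (y axes, from 0) of solute carrier families in each library, as points shaped by replicate with the group mean (horizontal bar) and ± 1 SD. The sum of Slc25a3, Slc25a4 and Slc25a5 was 6462 to 7369 in shBrca2 and 5159 to 5869 in shControl and the Slc39 sum 1873 to 2084 and 2212 to 2464, while the groups overlapped in the other 4 panels. The sums are a description and carry no test.

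In the remaining carrier families, 77 genes in all and 71 tested, 0 were called by DESeq2 and 0 by edgeR. Of the 71, 10 had an unadjusted p under 0.05 (8.66% of all genes did). The 20 genes of the Slc35 family, which carry nucleotide sugars into the Golgi and endoplasmic reticulum for glycosylation, had a median log2 fold change of 0.14, a range from -0.75 to 1.25 and 2 genes at an unadjusted p under 0.05. Slc44a2, a choline transporter-like gene, had 43.6, 23.6 and 32.2 normalized counts in shBrca2 and 68.7, 63.7 and 51.4 in shControl. It did not overlap between the groups, at a log2 fold change of -0.91 ± 0.33 (SE, DESeq2 adjusted p = 0.258), and with 1 surrogate variable in the model it was called (-1.09, adjusted p = 0.0802 by DESeq2). Slc5a6, the sodium-dependent carrier of biotin and pantothenate, had 34.1, 22.7 and 20 in shBrca2 and 41.4, 36.9 and 55.4 in shControl, a log2 fold change of -0.82 ± 0.37 (SE). Slc5a6 overlaps Atraid in RefSeq. Slc43a3, a nucleobase carrier in a family of amino acid carriers, had 43.6, 56.7 and 40.0 against 39.4, 22.6 and 31.6, a log2 fold change of 0.59 ± 0.35 (SE). Neither was called (DESeq2 adjusted p = 0.480 and 0.700).

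Further members of these families, all chosen after their values were seen, did not overlap between the groups although they were not called. Slc48a1, which moves heme between compartments, had 356, 298 and 236 normalized counts in shBrca2 and 404, 425 and 403 in shControl (log2 fold change -0.48, DESeq2 adjusted p = 0.292), and it overlaps Hdac7 in RefSeq. Slc50a1, a sugar carrier of the SWEET family, had 251, 262 and 142 against 307, 322 and 322 (log2 fold change -0.55, DESeq2 adjusted p = 0.343). In both genes shBrca2 replicate 3 was the lowest library. Slc29a1, the nucleoside carrier ENT1, through which cells also take up gemcitabine, had 242, 256 and 185 against 273, 298 and 341 (log2 fold change -0.42, DESeq2 adjusted p = 0.483). Slc22a23, an orphan member of the organic ion family, lay the other way, at 260, 264 and 236 against 174, 205 and 188 (log2 fold change 0.42, DESeq2 adjusted p = 0.423).

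Some members with high counts lay close to 0, while others named above, such as Slc25a4, Slc25a5, Slc25a24 and Slc39a7, did not. Slc6a6, the taurine carrier, had 1085 to 1235 normalized counts over all 6 libraries and a log2 fold change of 0.07 ± 0.14 (SE). Slc25a39, which carries glutathione into mitochondria, had a log2 fold change of 0.03 at a base mean of 1111. Slc35a4 had 344 to 449 in shBrca2 and 361 to 426 in shControl, and its log2 fold change was -0.05 ± 0.17 (SE). Slc20a2, a phosphate importer, had 288 to 338 and 304 to 389, with a log2 fold change of -0.10 ± 0.17 (SE). In Slc6a6, Slc35a4 and Slc20a2 the groups overlapped, and all 4 genes were chosen after their values were seen.

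Some uncalled members spread widely between libraries of 1 group. Slc33a1, the acetyl-CoA carrier of the endoplasmic reticulum, had 113, 33.1 and 127 normalized counts in shBrca2 and 64.7, 40.3 and 15.8 in shControl. The ratio of its highest to its lowest library was 8.03, shBrca2 replicate 2 lay under 2 shControl libraries, and the log2 fold change of 1.18 had an interval of -0.31 to 2.67 (adjusted p = 0.746 by DESeq2). Without shBrca2 replicate 2 it was called at a log2 fold change of 1.58 (adjusted p = 0.0587 by DESeq2), and it overlaps Gmps in RefSeq. Slc40a1, the iron exporter ferroportin, had 73.6, 40.6 and 55.7 in shBrca2 and 40.4, 39.4 and 5.93 in shControl. Only shControl replicate 3, which stood apart in the whole table, was far lower, and the log2 fold change of 0.97 had an adjusted p of 0.517 by DESeq2. Slc5a3, a myo-inositol carrier that shares its locus with Mrps6, had 106, 61.4 and 94.8 in shBrca2 and 83.9, 62.9 and 37.6 in shControl, where shControl replicate 3 was again the lowest library. What the position of shControl replicate 3 contributes to these values was not tested.

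**Figure D4:**
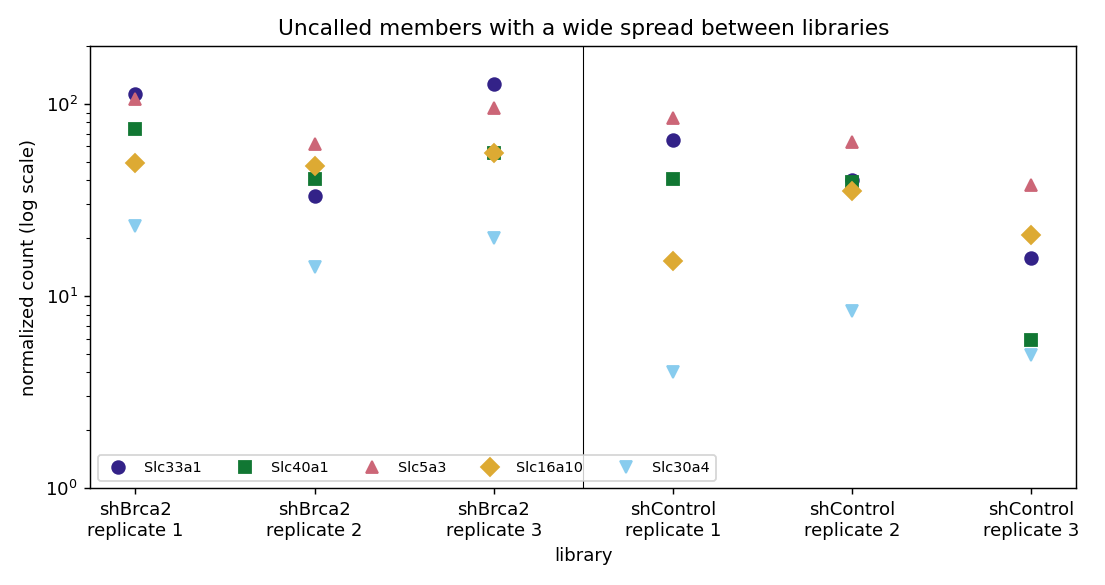
Normalized count (y axis, log scale) of 5 uncalled solute carrier genes in the 6 libraries (x axis). Slc33a1, Slc40a1 and Slc5a3 were lowest in shControl replicate 3, at 15.8, 5.93 and 37.6, while Slc16a10 and Slc30a4, shown for their large uncalled log2 fold changes, were lowest in shControl replicate 1, at 15.2 and 4.04.

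Carriers with other names, partners of the solute carriers and genes of their substrates were taken as a list of 40, of which 33 were in the table and 31 tested. Of these 1 was called higher and 1 lower in shBrca2, together 6.45% of those tested, beside 1.27% of all genes tested. Their median log2 fold change was -0.02. Slco4a1, an organic anion carrier, had 538, 654 and 623 normalized counts in shBrca2 and 290, 391 and 371 in shControl, with no overlap. It rose by a log2 fold change of 0.79 ± 0.17 (SE, DESeq2 adjusted p = 0.00157). Mt2, the zinc-binding metallothionein 2, had 727, 641 and 679 in shBrca2 and 1123, 962 and 927 in shControl. Every shBrca2 library was lower, and Mt2 fell by 0.56 ± 0.15 (SE) on the log2 scale (DESeq2 adjusted p = 0.0239). The metallothionein gene Mt1 of the same list, named after its values were seen, was not called and its groups overlapped. Its log2 fold change was -0.34 ± 0.19 (SE, DESeq2 adjusted p = 0.622) at a base mean of 2226.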

How the data were processed

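Deposited values were raw counts per gene symbol for 6 libraries, 1 column each, not normalized or pooled by the authors. Libraries followed a variation of MARS-seq (3′ end), so counts do not scale with transcript length. The submitters' processing notes name bcl2fastq, cutadapt, STAR 2.4.2a, HTSeq, DESeq2 and mm10. Annotation, strand setting and use of molecular identifiers are not given in the sources used here, so counts may include PCR copies. Each listed gene had at least 6 counts in some library.

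DESeq2 1.42.0 (R 4.3.3) was fitted on all 10616 genes by a likelihood ratio test for the group term, scaled by median-of-ratios factors as the study's methods state, giving 9997 genes an adjusted p (base mean of at least 4.64 after independent filtering). A normalized count is the raw count over its library's factor. Alternatives were edgeR 4.0.16, the Wald test, other scalings, filters and thresholds, 1 surrogate variable (sva 3.50.0) and each library left out. The pipeline was also run on simulated counts. The simulated log2 fold changes were larger than those of the called members, so recovery of changes of their size was not tested.

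Genes named were all called members, the 2 with the smallest p and the 2 with the highest base mean in the glucose, amino acid, mitochondrial and zinc groups, the 8 uncalled with the largest absolute log2 fold change (base mean over 20), the 5 with the largest ratio between libraries (base mean over 50) and Brca2. Members, groups and lists were chosen with earlier results of these data known, so no list was tested. Positions came from RefSeq on GRCm38.p6, where 70 of the 176 members overlap another gene. Named members whose overlap is not given above include Slc2a1, Slc16a10, Slc25a3, Slc38a10 and Slc44a2, so their counts share that limit.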

Additional observations from a re-analysis of the deposited data

How the results depend on the processing

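The number of called solute carriers was 5 to 7 under 9 of the 10 alternatives that kept all 6 libraries, and edgeR called the same 6 genes. At an adjusted p under 0.05 it was 3 (1 higher, 2 lower): Slc4a11, Slc16a3 and Slc26a2. With TMM factors, with at least 10 counts in 3 libraries, and with 1 surrogate variable, Slc2a6 and Brca2 fell below the independent filter on low counts and had no adjusted p, so they were not tested there. Across the 6 fits that each left out 1 library, the calls ranged from 2 to 6, the higher calls from 0 to 2 and the lower calls from 1 to 4, and Brca2 had log2 fold changes between -1.70 and -1.46, with the call lost in 3 of the 6, at adjusted p-values of 0.152, 0.233 and 0.371 without shBrca2 replicate 2, shBrca2 replicate 3 and shControl replicate 2. Fewer libraries lower the power of each fit. Of 377 comparisons of a named member with an alternative, 350 kept direction and call, 22 lost the call, 5 gained it and 0 reversed. Only the 6 called members could lose a call, so all 22 losses are theirs. An uncalled member that stayed uncalled counts as kept, and alternatives that change only a threshold or filter reuse the same log2 fold changes and could not reverse. Of 160 comparisons of a group's median log2 fold change, 26 moved by more than the spread between libraries. No scaling moved the median of all genes by over 0.1. Low counts limit members such as Slc2a6 and Slc30a4, and 51 members had a base mean under 20. No paired analysis was possible because the labels give the groups no shared replicate numbers, and those used here follow accession order and only name the libraries.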
